A study of Mus musculus with 6 samples.

Results

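The nuclear genes for the subunits of the oxidative phosphorylation machinery were followed through 14 days of osteogenic culture. Members were the genes with a probe whose symbol begins with Nduf, Uqcr or Atp5, or is Cyc1, one of the Sdh genes of succinate dehydrogenase or one of the Cox4 to Cox8 series. The probe also had to have a detection p under 0.01 on at least 1 array. Of 79 genes with such a symbol 78 were members, among 8881 genes tested in all, and 74 of the 78 were detected on all 6 arrays. They comprise 31 genes for subunits of complex I, 3 for complex II, 7 for complex III, 14 for complex IV, 16 for complex V and 7 that the Nduf prefix adds, which code for assembly factors of complex I and are no subunits. Ndufa4 carries a complex I name and is counted with complex IV, where its protein is found. Near the detection limit, the lowest detection p was 0.00374 for Atp5o and 0.0025 for Cox4i2, both members, while Sdha, for the flavoprotein of complex II, had a lowest detection p of 0.0343 and was left out.

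The cells were mesenchymal stem cells from the fat of C57BL/6 mice, taken at dorsal and inguinal sites. They received an osteogenic medium on a DMEM-F12 base with ascorbic acid, β-glycerophosphate, the glucocorticoid dexamethasone, DMSO, serum and antibiotics, and RNA was taken on days 1, 3, 6, 10 and 14, against cells taken on day 0. Every day is represented by 1 Illumina bead array without replicates. No array of these 6 holds cells kept equally long without the medium, so time in culture, the medium and the single array of a day cannot be told apart. How many animals or cultures each RNA came from is not given in the labels.

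Between 12891 and 13980 probes were detected per array, and 75 to 77 of the 78 members. The lowest correlation between any pair of arrays was 0.824 across probes. On the signals as deposited, the median of all genes lay above that of day 0 by 0.25 log2 units (day 1), 0.10 (day 3), 0.02 (day 6), 0.14 (day 10) and 0.07 (day 14), and quantile normalization removed these shifts. All levels below are normalized log2 signals of the brightest probe of a gene. They compare days for 1 gene and not genes with each other. In bulk RNA, fewer cells of a type and less RNA per cell cannot be told apart.

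Oxidative phosphorylation is the process by which mitochondria turn the energy of electrons from nutrients into ATP. Complex I accepts electrons from NADH and complex II from succinate, complex III passes them on to cytochrome c, and complex IV hands them to oxygen. Complexes I, III and IV pump protons across the inner membrane, and complex V, the ATP synthase, uses the returning protons to make ATP. All but complex II also contain subunits coded by mitochondrial DNA, which are not members here. Cultured stromal stem cells are known to rely strongly on glycolysis, and their use of respiration changes as they differentiate into bone or fat cells.

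The median over the members followed an arch: it was slightly above day 0 on day 3, below it on day 6 and lowest on day 10. Of the 78 members, 74 (94.9%) had a lower level on day 6 than on day 3, against 51.4% of all genes tested. The median step was -0.33 log2 units, or 1.25-fold, and 59 members lay within 0.5 log2 units of their level on day 3. Steps ranged from -1.54 for Cox7a1, which was not above background on day 6, to 0.88 for Cox4i2, which was not above background on day 3, and were near 1 log2 unit down for Ndufs8 (-0.99), Atp5k (-0.95) and Atp5g1 (-0.93). The 4 members that were not lower on day 6 were Cox4i2, Cox6b2, Ndufa1 and Uqcrh. The highest of the 6 levels fell on day 3 in 37 members (47.4%), against 13.6% of all genes. The lowest fell on day 10 in 43 members (55.1%), against 21.3% of all genes. Single members thus departed from the arch: 13 were highest on day 0 and 19 on day 1. In 0 members was day 3 the lowest day (11.2% of all genes) or day 10 the highest (21.2%). Between days 10 and 14 the direction turned, and 17 members (21.8%) were lower on day 14 than on day 10, against 49.1% of all genes. These counts rest on single arrays and carry no test.

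Relative to day 0, the median change of the members was 0.03 log2 units (day 1), 0.15 (day 3), -0.16 (day 6), -0.34 (day 10) and -0.21 (day 14). Over all genes tested, no such median was further than 0.0227 from 0. Members below their day 0 level numbered 36 on day 1 (46.2%, against 51.6% of all genes), 20 on day 3 (25.6%, against 48.4%) and 54 on day 6 (69.2%, against 50%). They numbered 64 on day 10 (82.1%, against 50.9%) and 57 on day 14 (73.1%, against 50.3%). From one array to the next, 24 members were lower on day 3 than on day 1 (30.8%, against 48.3%), and 57 were lower on day 10 than on day 6 (73.1%, against 50.3%). Member probes tend to be bright, so the counts were repeated among genes with a mean log2 level of 12 or more. Of the 47 members there, 45 (95.7%) were lower on day 6 than on day 3, against 53.4% of all genes that bright. In the same bright set 25 members (53.2%) had their lowest level on day 10, against 23.3% of all genes, and 25 had their highest on day 3, against 15.4%. Along the slope described below, 7 of the 47 were called (14.9%), against 39.2%. The 74 members on day 6 were also reached under median scaling, on the signals as deposited, without background correction and with the mean of all detected probes of a gene. The count of members highest on day 3 depended more on scaling and was 24 of 78 on the signals as deposited, against 12.1% of all genes.

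**Figure D1:**
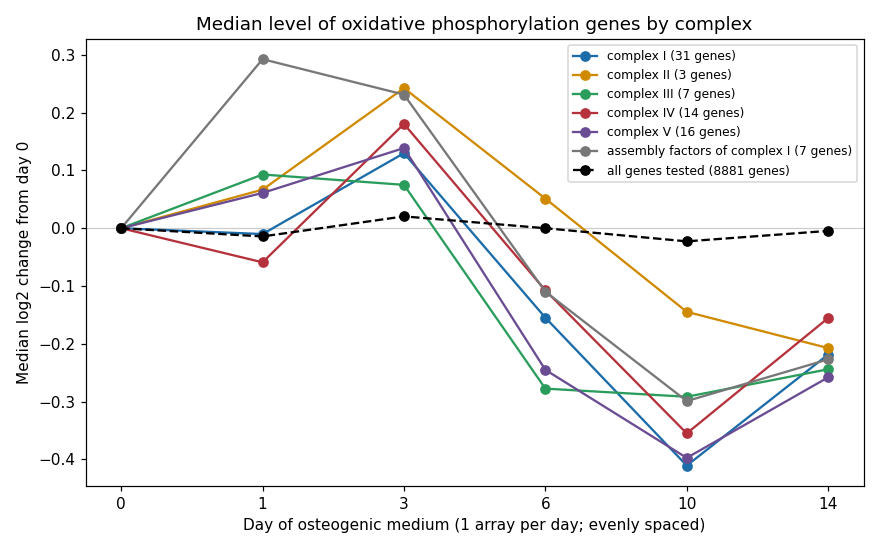
Median log2 change from day 0 (vertical axis) on days 0 to 14 (horizontal axis, evenly spaced) over the genes of each complex, the 7 assembly factors of complex I and all 8881 genes tested; each point is a median over genes on 1 array. All complexes lie above day 0 on day 3 and below their day 3 value on day 6, while the median of all genes stays within 0.03 of 0.

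The median course differed in detail between the complexes. Complex I had median changes from day 0 of -0.01, 0.13, -0.15, -0.41 and -0.22 log2 units at the 5 later times, in their order. Complex II, with the 3 genes Sdhb, Sdhc and Sdhd, had 0.07, 0.24, 0.05, -0.14 and -0.21 on the same days. The median of complex II was thus still above day 0 on day 6 and lowest on day 14. Of its 3 genes, however, 0 had their lowest level on day 14, and 1 was lower on day 14 than on day 10. Complex III had medians of 0.09, 0.08, -0.28, -0.29 and -0.24, with most of its change between days 3 and 6. Complex IV had -0.06, 0.18, -0.11, -0.36 and -0.16, and its steps from day 3 to day 6 (-0.31) and from day 6 to day 10 (-0.35) were of similar size. Complex V had 0.06, 0.14, -0.25, -0.40 and -0.26, and all 16 of its genes were lower on day 6 than on day 3. The assembly factors of complex I had 0.29, 0.23, -0.11, -0.30 and -0.23. These factors had the highest median of the 6 groups on day 1. The differences between complexes were not tested, because genes of a complex are not replicates.

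A slope on log2(day + 1) was fitted through the 6 arrays of each gene with limma, which asks for a net rise or fall and counts an arch as error. At an adjusted p under 0.05 over all 8881 genes, 13 of the 78 members were called (16.7%), against 36.2% of all genes. Of the members 3 rose (3.85%), against 18.5% of all genes, and 10 fell (12.8%), against 17.7% of all genes. The difference between these shares was not tested. Small slopes below 0 were common: 63 of 78 members (80.8%) had one, against 50.1% of all genes, and the median slope was -0.09 over the members and -0.001 over all genes. A range of at least 2-fold between the highest and lowest day was found in 15 members (19.2%), against 51.6% of all genes. Among members detected on all 6 arrays 12 of 74 were called (16.2%), against 33.7% of such genes. At an unadjusted p under 0.05, 22 members passed (28.2%), against 48.6% of all genes.

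The number of falls depended on single days. It was 16 without day 0 (17.8% of all genes fell in that fit), 4 without day 1 (13.3%), 10 without day 3 (17.5%), 2 without day 6 (11.9%), 1 without day 10 (7.2%) and 0 without day 14 (4.85%). The number of rises was 1 without day 1 (14.8% of all genes rose), 1 without day 10 (8.65%) and 0 without day 14 (6.64%). On the signals as deposited 0 members rose (16.3% of all genes) and 3 fell (13.7%). Slopes below are given ± SE as the log2 change for each doubling of day + 1, and levels listed without days run over days 0, 1, 3, 6, 10 and 14.

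**Figure D2:**
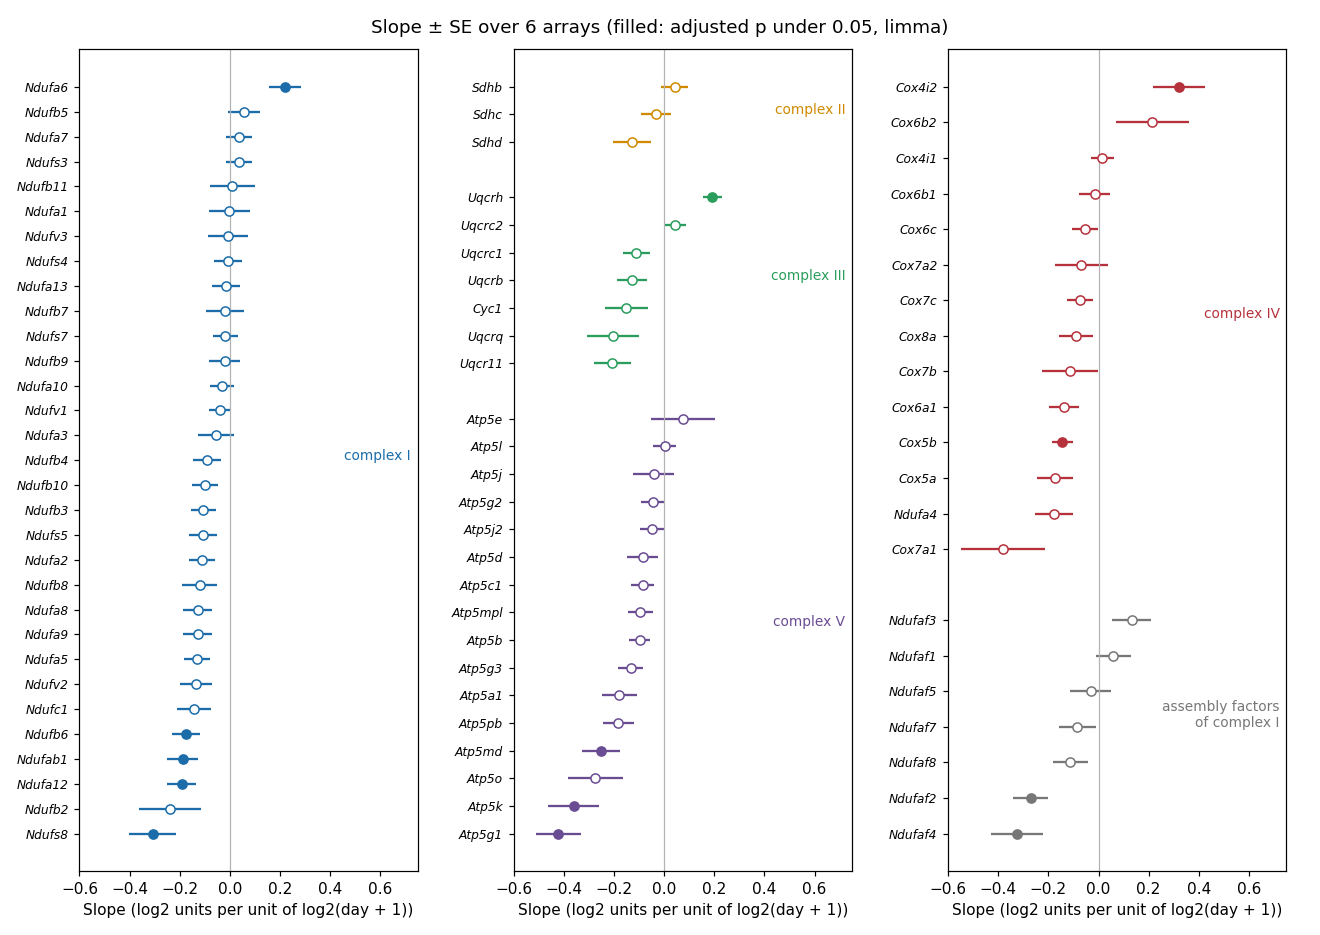
Slope along the days (horizontal axis, log2 change per unit of log2(day + 1)) ± SE from the limma fit over 6 arrays for each of the 78 members, ordered by slope within each complex. Filled points mark the 13 members with an adjusted p under 0.05; most points lie slightly left of 0, and Cox4i2, Ndufa6 and Uqcrh stand to the right.

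Among the 31 genes of complex I, 1 rose, 4 fell and 26 were not called, with a median slope of -0.09. Ndufs8, for one of the core iron-sulphur subunits that carry electrons towards ubiquinone, had log2 levels of 12.34, 12.42, 12.56, 11.57, 11.24 and 11.50. The first 3 days were all above the last 3, and Ndufs8 was 1.78-fold lower on day 14 than on day 0 (slope -0.31 ± 0.0938, adjusted p = 0.0400). The other 4 core genes, Ndufs3, Ndufs7, Ndufv1 and Ndufv2, were not called. The accessory subunit gene Ndufa12 had levels of 12.57, 12.36, 12.36, 11.88, 11.73 and 12.02. It was highest on day 0 and 1.47-fold lower on day 14 (slope -0.19 ± 0.0591, adjusted p = 0.0408). Ndufab1 codes for the mitochondrial acyl carrier protein, which serves in fatty acid synthesis as well as in complex I. Its levels were 13.38, 13.65, 13.35, 12.85, 12.95 and 12.85, with the 3 later days close together below the 3 earlier ones (slope -0.19 ± 0.0616, adjusted p = 0.0498). Ndufb6, an accessory subunit gene of the membrane arm, had 13.74, 14.02, 13.68, 13.44, 13.26 and 13.27 (slope -0.17 ± 0.0556, adjusted p = 0.0462).

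Ndufa6 was the gene of complex I that rose. It codes for an accessory subunit that binds the acyl carrier protein made from Ndufab1, and the 2 genes were called in opposite directions. Levels of Ndufa6 were 10.29, 10.24, 10.77, 10.59, 10.90 and 11.21, so days 0 and 1 were the lowest and day 14 the highest. Ndufa6 was 1.88-fold above its day 0 level on day 14 (slope 0.22 ± 0.0641, adjusted p = 0.0339). Ndufb5 had the next highest slope of the complex without a call, at 0.06 ± 0.0646, and Ndufb2 the next lowest, at -0.24 ± 0.124 (adjusted p = 0.166). Ndufb2 was highest on day 1 at 8.27 and not above background on day 10. Ndufb11 on day 1 was 1.66-fold above day 0, and Ndufv3 1.57-fold below it, and neither was called along the days. The 5 core genes had a median step of 0.10 log2 units from day 6 to day 10, with 1 of 5 lower on day 10, while the 26 accessory genes had a step of -0.10 with 19 lower on day 10.

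None of the 3 genes of complex II was called. Sdhb, for the iron-sulphur subunit, had 12.21, 12.27, 12.57, 12.35, 12.32 and 12.43, and its lowest level was on day 0 (slope 0.04 ± 0.0522, adjusted p = 0.559). The membrane anchor genes had slopes of -0.03 ± 0.0597 for Sdhc and -0.13 ± 0.0760 for Sdhd. Sdhd was highest on day 1 at 11.55 and lowest on day 10 at 10.70.

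In complex III 1 of 7 genes rose and none fell. Uqcrh, for the acidic hinge protein that takes part in the contact between cytochrome c1 and cytochrome c, had levels of 14.12, 14.22, 14.48, 14.72, 14.74 and 14.82. Each day was above the day before it, and Uqcrh was 1.63-fold above its day 0 level on day 14 (slope 0.19 ± 0.0395, adjusted p = 0.0123). The other genes of the complex went different ways without a call. Uqcr11 had the lowest slope, at -0.21 ± 0.0737 (adjusted p = 0.0632), with levels of 13.35, 13.15, 13.51, 12.83, 12.50 and 12.69. Uqcrq was next, with levels of 9.50, 8.96, 8.68, 8.10, 8.95 and 8.59 (slope -0.21 ± 0.104, adjusted p = 0.155), so it reached its lowest level on day 6 and was 1.88-fold lower on day 14 than on day 0. Cyc1, which codes for cytochrome c1, was 1.55-fold above its day 0 level on day 1 and had levels of 11.41, 12.04, 11.67, 11.13, 11.12 and 11.21 (slope -0.15 ± 0.0856, adjusted p = 0.199). The core protein gene Uqcrc2 had the second highest slope, at 0.04 ± 0.0426 (adjusted p = 0.432).

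In complex IV 1 of 14 genes rose and 1 fell. Cox5b, for a zinc-binding subunit on the matrix side, had levels of 14.88, 14.64, 14.71, 14.44, 14.25 and 14.38. It was highest on day 0 and 1.42-fold lower on day 14 (slope -0.14 ± 0.0437, adjusted p = 0.0391). Ndufa4 had 14.57, 14.54, 14.93, 14.28, 13.98 and 13.95 and was 1.53-fold lower on day 14 than on day 0, without a call (slope -0.18 ± 0.0754, adjusted p = 0.100). Cox7b was 1.57-fold above its day 0 level on day 1 and 1.76-fold higher on day 3, and its slope was -0.11 ± 0.111. Cox6a1 and Cox8a had slopes of -0.14 ± 0.0588 and -0.09 ± 0.0668, also without calls.

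Several subunits of complex IV exist in alternative forms from different genes. Cox4i2 codes for the form of subunit 4 known from lung and from cells short of oxygen, and Cox4i1 for the common form. Cox4i2 had levels of 6.54, 6.25, 6.60, 7.47, 7.13 and 7.67 and was above background on days 6, 10 and 14 only. Set against the lowest detected level of the day 0 array, Cox4i2 was at least 1.60-fold higher on day 14 (slope 0.32 ± 0.102, adjusted p = 0.0452). It became a member through its later days, so its rise is tied to the detection rule. Cox4i1 had 15.31, 15.01, 15.32, 15.20, 15.18 and 15.34, with day 1 alone below the others (slope 0.01 ± 0.0463, adjusted p = 0.819).

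Cox6b2, known as the testis form of subunit 6b, had levels of 7.38, 7.54, 8.60, 8.74, 7.49 and 8.47. Days 3, 6 and 14 were high and days 0, 1 and 10 low, which left a slope of 0.22 ± 0.147 without a call (adjusted p = 0.280). Cox6b2 was 2.13-fold above its day 0 level on day 14, and the common form Cox6b1 had a slope of -0.02 ± 0.0619. Cox7a1, the form of subunit 7a known from heart and skeletal muscle, had 8.31, 6.69, 8.09, 6.55, 6.41 and 6.68. It was detected on days 0, 3 and 14 and was not above background on days 1, 6 and 10. Cox7a1 was 3.09-fold lower on day 14 than on day 0, and at least 2.71-fold lower on day 10 (slope -0.38 ± 0.167, adjusted p = 0.110). Cox7a2, its widespread partner, had 10.20, 10.76, 10.90, 10.32, 9.83 and 10.45 and a slope of -0.07 ± 0.106. Differences between the forms of a subunit were not tested.

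**Figure D3:**
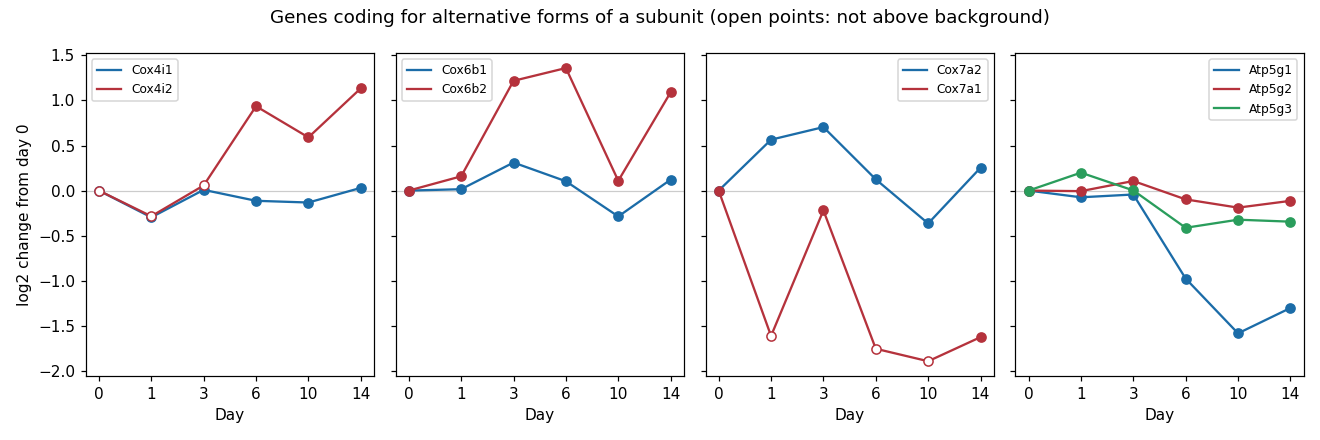
Log2 change from day 0 (vertical axis) on days 0 to 14 (horizontal axis) for genes coding for alternative forms of subunits 4, 6b and 7a of complex IV and for the 3 genes of subunit c of complex V; each point is 1 array and open points were not above background. Relative to day 0, where Cox4i2 was not above background, Cox4i2 is well above Cox4i1 on days 6, 10 and 14, and Atp5g1 is furthest below Atp5g2 and Atp5g3 on the same days.

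In complex V 3 of 16 genes fell and none rose, and 14 of the 16 slopes were below 0. The 3 falls were among the 11 genes for the stalk and the membrane part Fo, with a median slope of -0.13. None of the 5 genes for the catalytic head F1 was called, with a median slope of -0.09. Over all genes 17.7% fell and 18.5% rose, so counts this small do not set these parts apart. The difference between the parts was not tested. Atp5g1 had the steepest fall of all members. It is 1 of 3 nuclear genes for subunit c, which forms the rotor ring in the membrane. Its levels were 13.88, 13.81, 13.84, 12.90, 12.30 and 12.58: the first 3 days lay within 0.1 log2 units of each other and all later days were below them. Compared with day 0, Atp5g1 was lower by 1.97-fold on day 6, 3.00-fold on day 10 and 2.47-fold on day 14 (slope -0.42 ± 0.0902, adjusted p = 0.0138). The other genes for the same ring had slopes of -0.05 ± 0.0481 for Atp5g2 and -0.13 ± 0.0503 for Atp5g3 and were not called. Atp5g3 had 15.39, 15.58, 15.39, 14.97, 15.06 and 15.04. The mature subunit c is the same protein from all 3 genes, which differ in the targeting peptide.

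Atp5k and Atp5md code for small membrane subunits, e and DAPIT, that help ATP synthase form dimers. Atp5k had levels of 10.12, 10.10, 10.30, 9.35, 8.76 and 9.04, with all later days below the first 3. It was 2.11-fold lower on day 14 than on day 0 (slope -0.36 ± 0.102, adjusted p = 0.0319). Atp5md had 9.98, 10.19, 9.80, 9.49, 9.04 and 9.33 and was 1.57-fold lower on day 14 (slope -0.25 ± 0.0740, adjusted p = 0.0352). Atp5o, for the stalk protein OSCP, had 7.14, 7.71, 7.35, 6.91, 6.26 and 6.50. It was not above background on days 6, 10 and 14, and was at least 1.41-fold lower on day 14 than on day 0 (slope -0.27 ± 0.110, adjusted p = 0.0886). Atp5pb, for subunit b of the stalk, was 1.51-fold lower on day 14 than on day 0 (slope -0.18 ± 0.0623, adjusted p = 0.0554). Atp5e, for the epsilon subunit of the head, had the highest slope of the complex, at 0.08 ± 0.129. Its levels were 8.52, 8.98, 9.74, 9.33, 8.49 and 9.20, so day 3 was 2.32-fold above day 0 and day 10 was level with it.

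Of the 7 assembly factor genes of complex I, 2 fell and 5 were not called. Ndufaf4 had levels of 11.36, 12.13, 11.23, 10.68, 10.56 and 10.59. Day 1 stood apart at 1.71-fold above day 0, and day 14 was 1.70-fold below day 0 (slope -0.32 ± 0.104, adjusted p = 0.0458). Ndufaf2, a relative of the subunit gene Ndufa12, had 12.60, 12.79, 12.22, 11.68, 11.77 and 11.86 (slope -0.27 ± 0.0704, adjusted p = 0.0247). Ndufaf2 and Ndufa12 were called in the same direction. Ndufaf3 had the highest slope of the group, at 0.13 ± 0.0783, followed by Ndufaf1 at 0.06 ± 0.0692.

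**Figure D4:**
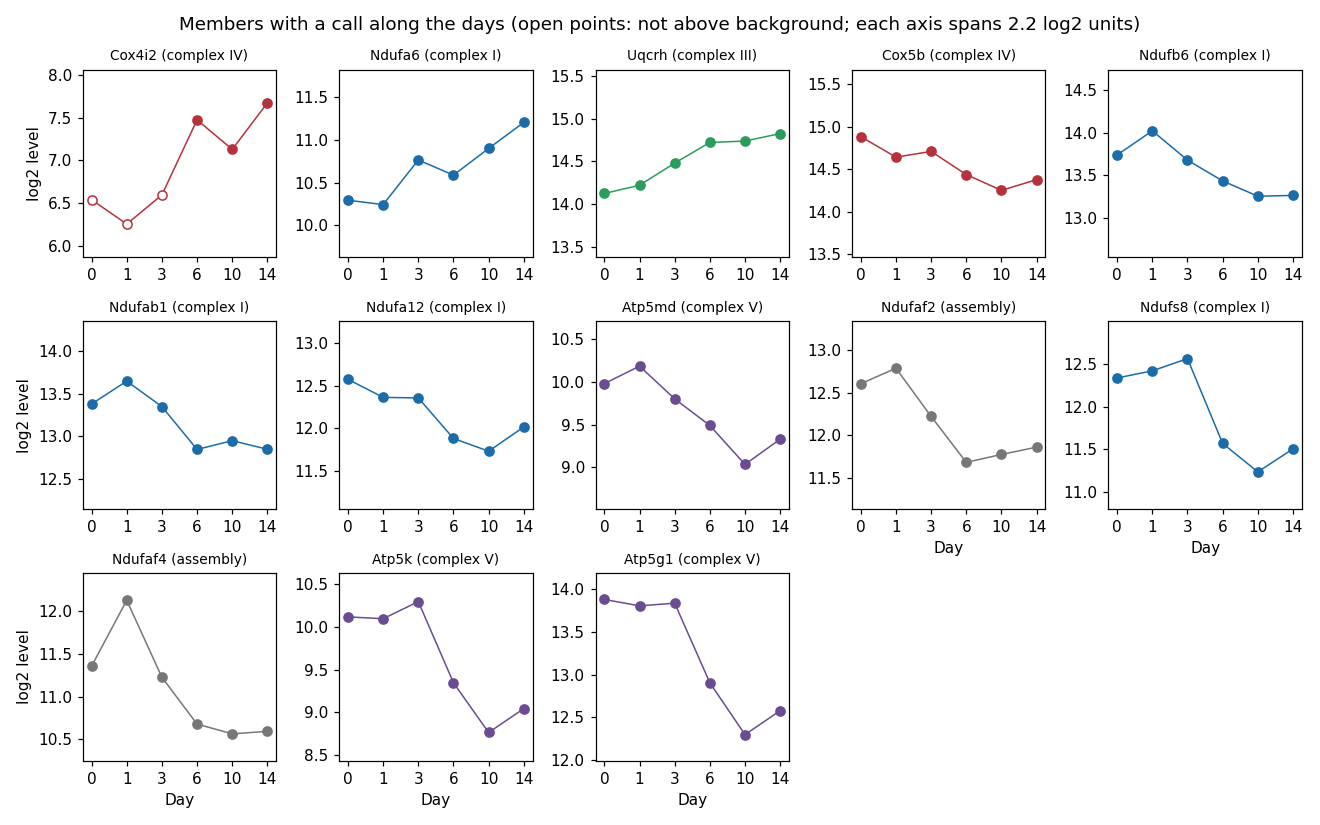
Normalized log2 level (vertical axes, each spanning 2.2 log2 units) on days 0, 1, 3, 6, 10 and 14 (horizontal axes) for the 13 members called along the days, in order of slope; each point is 1 array and open points were not above background. Atp5g1, Atp5k and Ndufs8 stay level to day 3 and are lower from day 6, whereas Uqcrh is higher on each successive day.

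Calls of single members depended on the processing. Over 17 alternative fits, Atp5g1 kept its call in 16 and lost it without day 14 (adjusted p = 0.0571). Uqcrh kept its call in 14 of 17, Ndufa6 and Ndufaf2 in 12, Atp5k in 11, Ndufs8 in 10, Atp5md in 9 and Ndufb6 in 8. Cox5b, Ndufa12 and Ndufaf4 kept theirs in 7 of 17, Ndufab1 in 2 of 17 and Cox4i2 in 9 of 16. None of these slopes changed sign, and the slopes of Atp5g1 ranged from -0.55 to -0.36. Fits that changed only the detection filter or the intensity trend, or added a quadratic term, kept the slope by construction. So did the mean of detected probes for genes with 1 detected probe, among them Atp5g1, Uqcrh, Ndufa6 and Ndufaf2. The fit without a detection filter and the fit with a detection p under 0.05 gave the same counts of calls. The 17 fits are therefore not all distinct.

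Single days were also set against day 0 with no test. Members at least 1.5-fold different were counted where at least 1 of both arrays detected them. On day 1, 5 members were higher (background 11.9% of all genes) and 2 lower (11.3%), and on day 3, 6 were higher (16.1%) and 1 lower (12.7%). On day 6, 4 were higher (23.3%) and 11 lower (22.3%), on day 10, 3 were higher (26.4%) and 15 lower (26.2%), and on day 14, 5 were higher (26.4%) and 12 lower (24.8%). As shares, 5.13%, 3.85% and 6.41% of the members were higher on days 6, 10 and 14, and 14.1%, 19.2% and 15.4% lower, all below the shares of all genes. The members at least 1.5-fold higher on day 14 were Cox4i2, Cox6b2, Ndufa6, Uqcrh and Atp5e. Those at least 1.5-fold lower were Cox7a1, Atp5g1, Atp5k, Uqcrq, Ndufs8, Ndufaf4, Ndufaf2, Uqcr11, Atp5md, Ndufa4, Atp5pb and, by its measured level alone, Atp5o. All these counts use measured levels, also where 1 of both arrays was not above background. By their bounds, Atp5o was at least 1.21-fold lower on day 10 and 1.41-fold on day 14, and Cox4i2 at least 1.39-fold higher on day 6 and 1.095-fold on day 10, all short of 1.5-fold. Under median scaling 13 members were at least 1.5-fold higher on day 1 (20.4% of all genes) and 11 on day 3 (22.1%). In that scaling 1 was lower on day 1 (7.02%) and 7 were lower on day 14 (20.6%). These comparisons share the day 0 array.

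There were 7 members at 50% or more of the highest signal of an array, namely Ndufa13, Cox4i1, Cox7c, Atp5b, Atp5g3, Atp5j2 and Atp5l, and the size of their changes is less well resolved for that reason. Atp5b, for the catalytic beta subunit, reached 87.2% and had levels between 15.39 and 15.78. Their slopes lay between -0.13 for Atp5g3 and 0.01 for Cox4i1, and none was called.

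Of the members, 22 had more than 1 detected probe, which gave 25 further probes. The slope of the further probe had the sign of the brightest one in 20 of 25 (80%), against 78.1% over 3307 such probes of all genes. Where a member was called, 6 of 6 further probes had its sign. These probes belong to Ndufab1, Cox5b, Atp5k and Ndufaf4 only. Each of these genes lost its call when the mean of its detected probes was used. The slope of the difference between probes was called for 2 of the 25, against 17.6% of the 3307. In Atp5a1, for the alpha subunit of the head, the brightest probe ILMN_2633229 had 11.72, 11.82, 11.87, 11.12, 11.29 and 11.18. The further probe ILMN_1225041 had 8.89, 8.66, 8.87, 9.12, 10.03 and 9.74, so it was higher on the last 2 days where the brightest probe was lower. The difference in slope was 0.48 ± 0.110 (adjusted p = 0.0253), and with the mean of both probes the slope of Atp5a1 was 0.06, so its direction is unsettled. In Atp5l, for subunit g, the brightest probe ILMN_2705268 had 14.84, 14.93, 15.13, 14.79, 14.96 and 14.88, and the further probe ILMN_2587859 had 11.29, 11.00, 11.18, 10.68, 10.56 and 10.58. Here the difference in slope was -0.19 ± 0.0361 (adjusted p = 0.0140), and the further probe lies below the share of the highest signal at which sizes become unsure. Where on the transcripts these probes lie is not known here. The 2 calls numbered 1 without day 1, day 6 or day 10 and to 0 without day 14.

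**Figure D5:**
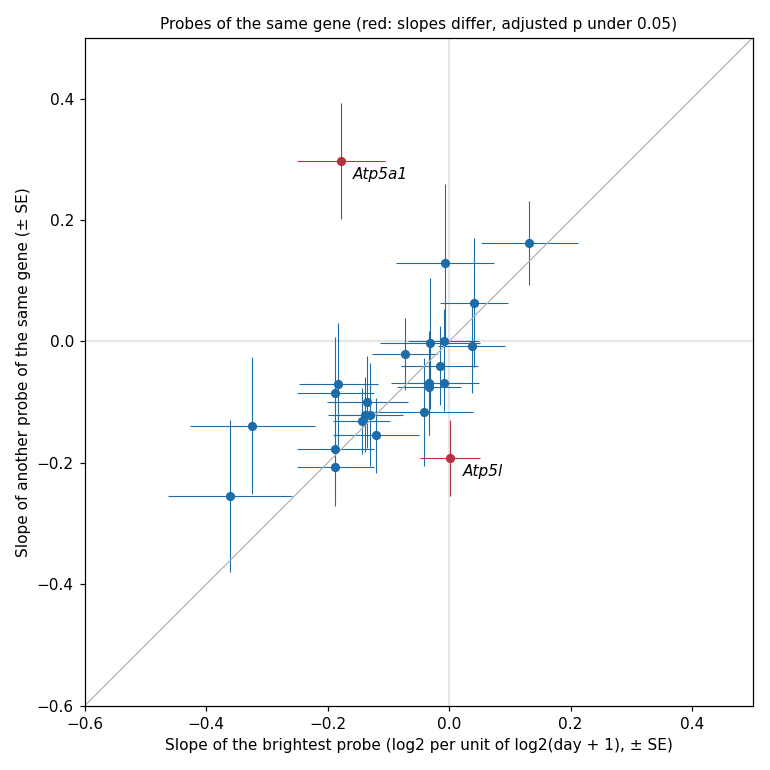
Slope of a further detected probe (vertical axis) against the slope of the brightest probe of the same gene (horizontal axis), both as log2 change per unit of log2(day + 1) ± SE, for 25 probes of 22 members. Most points lie near the diagonal line of equal slopes, and the red points Atp5a1 and Atp5l are the pairs whose slopes differed.

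In the authors' deposited table of signed folds all 78 members are listed. On day 14, 57 of them were lower than on day 0 in the authors' deposited table, against 50.4% of the tested genes listed there. All 78 had in that table the same day 14 direction as on the normalized scale. Those folds come from the same arrays, so the shared direction is not independent evidence. The authors' deposited table gives Atp5g1 as 2.95-fold below day 0 on day 10 and as 2.44-fold below it on day 14. In the authors' deposited table Uqcrh was 1.64-fold higher on day 14. Folds of some dimmer members were smaller there than on the normalized scale. On day 14 Cox7a1 was 2.06-fold lower, against 3.09-fold on the normalized scale, and Uqcrq 1.69-fold lower, against 1.88-fold. Cox6b2 was 1.69-fold higher, against 2.13-fold. The sizes of the folds were not compared over all members, so only the direction is shared throughout.

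Promoter sequence is shown for 4 called members, since genes of this group are known for shared binding sites of a few factors, NRF1, the ETS protein GABPA and YY1 among them. RefSeq windows (GRCm38.p6) from 250 bases before to 50 after the start were at hand for 66 members, as 71 windows. The 150 bases before the start follow for Uqcrh, the rise with the lowest adjusted p, and for Atp5g1, Atp5k and Ndufaf4, the 3 steepest falls, and capitals mark matches to the strings below on either strand. The regions are chr4:116075071-116075220 (minus strand), chr11:96075632-96075781 (minus strand), chr5:108434400-108434549 (minus strand) and chr4:24897933-24898082 (plus strand), each printed 5′ to 3′ in the direction of the gene.
Uqcrh: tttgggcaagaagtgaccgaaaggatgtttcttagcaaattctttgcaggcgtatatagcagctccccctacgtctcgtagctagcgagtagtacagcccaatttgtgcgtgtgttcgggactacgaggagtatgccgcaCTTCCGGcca
Atp5g1: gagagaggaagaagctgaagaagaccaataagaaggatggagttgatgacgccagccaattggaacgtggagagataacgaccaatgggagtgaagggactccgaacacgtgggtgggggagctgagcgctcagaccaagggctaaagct
Atp5k: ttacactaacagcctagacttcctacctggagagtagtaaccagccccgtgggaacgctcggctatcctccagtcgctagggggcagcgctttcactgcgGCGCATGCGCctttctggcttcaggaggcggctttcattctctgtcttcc
Ndufaf4: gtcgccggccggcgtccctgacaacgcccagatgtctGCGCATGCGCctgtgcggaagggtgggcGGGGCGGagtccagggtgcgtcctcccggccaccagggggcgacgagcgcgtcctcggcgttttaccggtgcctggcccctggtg
The capitals are a match to CCGGAAG (ETS, GABPA) in Uqcrh, to the NRF1 core (GCGCA, any base, GCGC) in Atp5k, and to the NRF1 core and GGGGCGG (Sp1) in Ndufaf4.

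Atp5g1 held none of the strings in its window, and Atp5k also held CCGGAAG outside the bases printed. Over whole windows and both strands, the NRF1 core was found in 16 of 71 member windows (22.5%), against 4.6% of 32851 windows of all genes. CCGGAAG was found in 18 (25.4%), against 8.86%, and AAGATGGC (YY1) in 10 (14.1%), against 2.75%. The ETS and YY1 strings overlapped in 0 windows. GGGGCGG was found in 23 (32.4%), against 23.2% of all windows. TCAAGGTCA (ERRA) was found in 2 member windows (2.82%), against 0.423%, and TGACGTCA (CREB) in 2, against 1.79%. A glucocorticoid receptor string (G, any base, ACA, 3 of any base, TGT, any base, C) was found in 0 of 71, against 0.475%. Most members with a match were not called. Of 15 members with the NRF1 core 2 fell and 1 rose, and of 18 with CCGGAAG 4 fell and 1 rose. Of 23 with GGGGCGG 3 fell and 1 rose, and of 10 with AAGATGGC 0 fell and 0 rose. Over all 78 members 10 fell and 3 rose, and over all genes 17.7% fell and 18.5% rose. Whether a match goes with a direction was not tested. A match in letters is not a bound site.

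Most tested genes of 4 lists around the respiratory chain were not called, and their counts stand against 18.5% rises and 17.7% falls over all genes. Of 29 tested genes for other assembly factors of the complexes 1 rose and 7 fell, with a median slope of -0.10. Tmem70, among the falls, was detected on 1 array only. Ttc19, needed for complex III, was among the falls (slope -0.59 ± 0.0825, adjusted p = 0.00513), and Cox18, which inserts a complex IV subunit into the membrane, had a slope of -0.42 ± 0.0916 (adjusted p = 0.0150). Surf1, another complex IV factor, was the 1 that rose (slope 0.32 ± 0.0788, adjusted p = 0.0213). Of 10 genes for electron carriers and coenzyme Q synthesis 0 rose and 2 fell, Coq10b and Coq7 (slopes -0.48 ± 0.0604 and -0.45 ± 0.102). Of 16 genes of the tricarboxylic acid cycle and pyruvate entry 2 rose, Pcx and Idh3g, and 1 fell. Pcx was not above background on days 0 and 1, so its rise is tied to the detection rule. The fall was that of Cs, the citrate synthase gene (slope -0.26 ± 0.0657, adjusted p = 0.0222). Among 8 regulators of mitochondrial biogenesis 0 rose and 2 fell, Gabpa (slope -0.42 ± 0.0972, adjusted p = 0.0172) and Hcfc1 (slope -0.25 ± 0.0613, adjusted p = 0.0199). Nrf1, Esrra, Tfam and Ppargc1b had slopes of -0.08, 0.02, -0.005 and 0.26 without calls, and Ppargc1a was not among the genes tested. Ppargc1b was detected on 1 array only.

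Markers of cell types moved over the same days. For the labelled cell type, 4 of 6 stromal markers were tested and all 4 were detected on every array. Pdgfra rose, Thy1, Eng and Cd44 fell, and the summed normalized signal of the 4 lay between 36320 on day 10 and 54220 on day 0. Of 7 adipocyte markers 3 were tested, Adipoq, Plin4 and Fabp4, and all 3 rose, against 18.5% of all genes. They passed the detection rule only through days after day 0, so their rises are tied to that rule. Their summed signal was 147.9 at the start, when none was detected, and then 280.7 (day 1), 1418 (day 3), 7683 (day 6), 10700 (day 10) and 11220 (day 14). Such sums mostly follow the brightest gene of a list, here Plin4 with a log2 level of 13.23 on day 10. Fabp4 went from 10.01 on day 6 to 8.76 on day 10 while the sum rose. On the log2 scale, Plin4 and Adipoq had their largest step between days 1 and 3 and Fabp4 between days 0 and 1, in each case from a level not above background. Of macrophage, endothelial and mural markers 1 of 5, 2 of 4 and 2 of 4 were tested and 0 were called, and of 4 skeletal muscle markers 0 were tested. The part of these markers' cell types in the courses of the members was not tested.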

How the data were processed

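Biotin-labelled RNA was read on single-colour Illumina bead arrays, per the labels. The authors deposited signal intensities on a linear scale without normalization across arrays. A detection p-value for each of them is also there, per the file headers. A further deposited table holds signed folds over day 0 (falls as minus the reciprocal), a score whose scaling is not given in the sources used here, nor are the scanner software and any background subtraction. Signal columns were matched to days through the series matrix, where 17785 of 17785 values per array were equal within 1e-05. Of 46649 entries, 6 without and 30 with a repeated identifier were left out.

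Signals were corrected with nec of limma 3.58.1 (R 4.3.3; detection p-values, offset 16), quantile normalized and log2 transformed. Symbols came from the platform annotation: 13805 probes had 1 symbol, 3 had several and the rest have none here; all 78 members were found in RefSeq by gene identifier with the same symbol. A gene was its brightest probe, and 8881 of 9751 genes were detected on at least 1 array and tested. Slopes on log2(day + 1) used lmFit and eBayes with an intensity trend, two-sided, with 4 residual degrees of freedom and p-values adjusted by Benjamini-Hochberg across the 8881 genes. Such p-values measure the scatter of 6 single arrays about a line. Differences between probes were fitted likewise over 3307 pairs. A bound of at least N-fold uses the lowest detected level of the array on which the gene was not above background, on the normalized scale. Precision is limited by having 6 arrays and by low signal near background. The procedure was tested on simulated data.

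The members, lists and tests were chosen with earlier results of these data known. Named members are all with a call, the 2 highest and lowest slopes of each complex, those 1.5-fold apart from day 0 on day 1 or 14, alternative forms, differing probe pairs and members at 50% or more of the highest signal. No array build is given, so no gene coordinates are reported beside the RefSeq windows.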

Additional observations from a re-analysis of the deposited data

How the results depend on the processing

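The direction of the slope was kept for the 13 called members in every alternative fit. Where only the detection filter, the intensity trend or a quadratic term was changed, it was kept by construction. The same holds for the mean of detected probes in genes with 1 detected probe. Of the alternative fits of the 46 named members, 96 lost a call, 13 gained one, 643 left direction and call as they were, and 26 turned the sign of a slope that was not called. Atp5a1 had 0.0593 with the mean of detected probes. Atp5l had -0.0174 under median scaling, -0.0345 as deposited, -0.095 with the mean of probes and -0.0089 on linear day. Cox4i1 had -0.0013 under median scaling and -0.0185 as deposited, Ndufb11 had -0.0068 as deposited and -0.0227 on linear day, and Ndufv3 had 0.0607 with the mean of probes and 0.0038 on linear day. With 1 day left out, slopes on both sides of 0 ranged from -0.0989 to 0.1812 for Atp5e, -0.0347 to 0.0139 for Atp5l, -0.0145 to 0.0721 for Cox4i1, -0.0531 to 0.0358 for Cox6b1, -0.2457 to 0.0122 for Cox7a2, -0.0587 to 0.0392 for Ndufa13, -0.0567 to 0.0865 for Ndufaf1, -0.1549 to 0.0688 for Ndufb11 and -0.0737 to 0.092 for Ndufv3. Of the members 10 fell and 3 rose along the days. Falls numbered 3 under median scaling (13.2% of all genes fell in that fit) and 3 on the signals as deposited (13.7%). They numbered 6 with the mean of detected probes (17.9%), 6 on linear day (13.8%) and 5 without the intensity trend (17%). With a quadratic term added they numbered 1 (9.66%). That call tested both terms together, with the direction taken from the line alone. With 1 day left out, falls ranged from 0 to 16 and rises from 0 to 3. Rises numbered 0 on the signals as deposited (16.3% of all genes rose) and 0 with a quadratic term (10.9%). The cause of these changes was not tested, beyond the arrays or terms removed. At least 1.5-fold from day 0, median scaling gave 13 members higher (20.4% of all genes) and 1 lower (7.02%) on day 1. It also gave 11 higher on day 3 (22.1%) and 7 lower on day 14 (20.6%). The signals as deposited gave 10 higher (18.2%) and 1 lower (3.3%) on day 1. Members highest on day 3 numbered 24 on the signals as deposited (12.1% of all genes). These alternatives for the shape of the course, and the counts without assembly factors, were chosen after seeing the data. Without the assembly factors 67 of 71 members were lower on day 6 than on day 3. With 1 day left out, the median slope ranged from -0.1708 to -0.0718 for the assembly factors and from -0.1903 to -0.0859 for complex III, lowest in both without day 0. Differing probe pairs ranged from 0 to 2 with 1 day left out. No paired analysis was possible because each day has 1 array.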
